A study of Drosophila melanogaster with 12 samples.

Results

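The genes described are 5 members of the GABA pathway, read in the heads of male fruit flies (Drosophila melanogaster) after withdrawal from the drug pentylenetetrazol (PTZ). They are Gad1, Gat, Gabat, Ssadh and Lcch3, found by their gene symbols among 6793 genes that the arrays name. PTZ is a convulsant that blocks GABA-gated chloride channels. GABA is the main inhibitory transmitter of the fly brain. It is made from glutamate by glutamate decarboxylase, opens chloride channels on the receiving neuron, is cleared into glia by a plasma membrane transporter, and is broken down in mitochondria to succinate.

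The withdrawn flies were unmated Oregon-R wild-type males, kept 30 to a vial, given PTZ in their food (8 mg/ml) during 7 days and moved to normal food for 1, 3 or 7 days. These are the groups of day 8, day 10 and day 14, counted from the first day on the drug. The untreated flies were males of the same stock and age, kept on normal food throughout and collected on the same days. The flies were 3 to 4 days old at the start per the series text and 4 to 5 days old per the channel labels. RNA came from pools of heads, so a value is a mean over many flies and over all cells of the head, and fewer cells of a type cannot be told apart from less RNA per cell. Each of the 4 spotted cDNA arrays of a day set withdrawn heads directly against untreated heads, and the series text calls the 4 arrays biological replicates.

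A value here is a log2 ratio of withdrawn over untreated heads, with the median of each array set to 0, so 0 is the middle gene of that array. Its direction is unsettled. The channel labels put the withdrawn heads in the Cy5 channel of every array, but according to the series text the dyes were swapped on 2 of the 4, and a protocol note for replicates 1, 2 and 3 of day 10 gives Cy3. Every "above 0" and "below 0" holds only under the channel labels. The deposited columns had medians of 0.16 to 0.194 at day 8, -0.309 to -0.198 at day 10 and 0.558 to 1.588 at day 14. The 4 day 8 columns were identical wherever they shared a value, and counted as 1 sample. The arrays held 2316 to 7454 spot values at day 8, 15057 to 18354 at day 10 and 4310 to 19807 at day 14. The day 10 arrays fell into 2 pairs, replicates 1 and 2 and replicates 3 and 4, with a correlation across genes of 0.50 to 0.55 within a pair and -0.07 to 0.03 between pairs. The day 14 arrays were little alike, with correlations of -0.04 to 0.24 between them.

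Not every gene could be read on every day. Gad1 had values on all 8 arrays of days 10 and 14 and in 2 day 8 columns. Gat and Ssadh had values only at day 10, on all 4 arrays. Gabat had values in 3 day 8 columns, on 1 array at day 10 and on all 4 at day 14, and Lcch3 on 4 arrays at day 10 and 2 at day 14. Testing at a day required values in 3 or more of its 4 columns, which gave 1 member at day 8, 4 at day 10 and 2 at day 14. The arrays give ratios and no levels, so whether a gene without a value is little expressed in the head cannot be read from them.

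No member passed the test at any day. At day 10, 0 of 4 tested members had an adjusted p under 0.05 in limma (Benjamini-Hochberg over all genes), as did 0% of 4661 genes, and 0 of 4 had an unadjusted p under 0.05, against 13.2% of all genes. At day 14 the counts were 0 of 2 members and 0% of 3010 genes, and unadjusted 0 of 2 against 6.64%. At day 8 the count was 0 of 1, against 3.66% of 519 genes, and unadjusted 0 of 1 against 7.71%. Day 8 is 1 sample and takes its spread from the other days. The median distance of its neighbouring spots was 0.142 to 0.168 in replicates 1, 2 and 4. That lay within the 0.122 to 0.20 of the other days. The differences between its neighbouring spots nevertheless had an SD of 0.589 to 0.755, against 0.245 to 0.443 on the other days. With the spread raised 2.02 times to match 4 of 519 genes passed, so the day 8 shares are no reliable background. Without setting the medians to 0 both day 14 members were called, as were 3001 of 3010 genes. The 4 members tested at day 10 all had means below 0, with a median of -0.16 beside 0.01 over all genes tested. The 2 tested at day 14 both had means above 0, with a median of 0.10 beside 0.01 over all genes. Of all genes tested, 2185 of 4661 had means below 0 at day 10 and 1570 of 3010 had means above 0 at day 14.

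**Figure D1:**
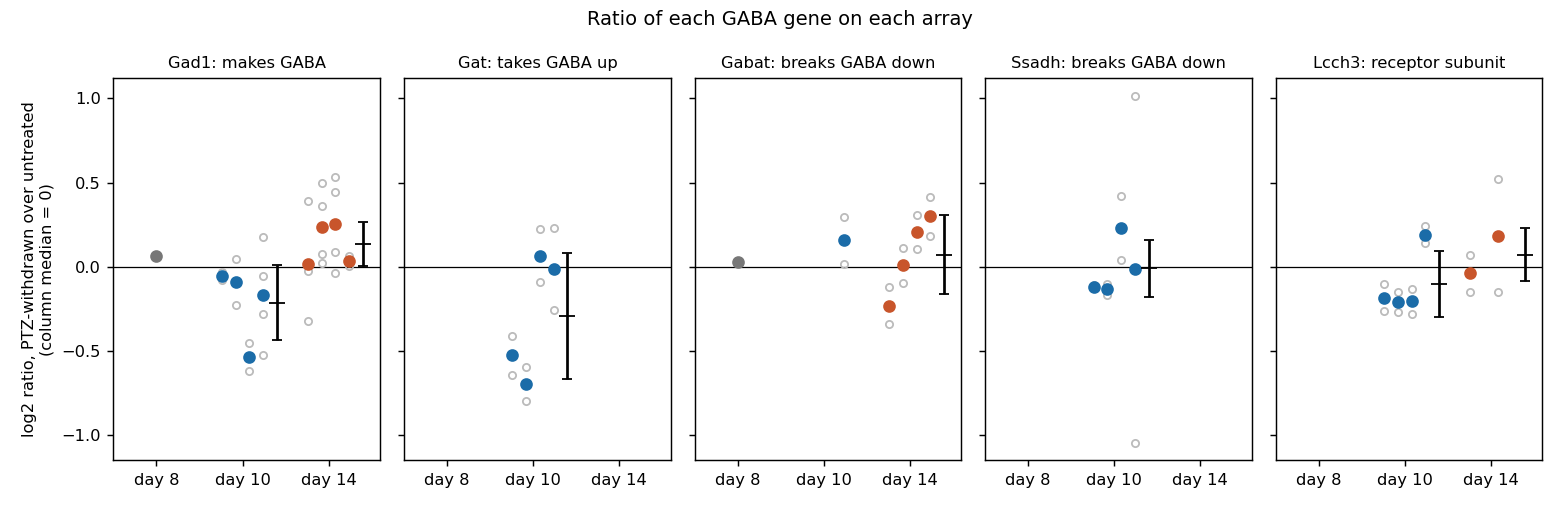
Log2 ratio of withdrawn over untreated heads for each gene on each array (filled points, replicates 1 to 4 from left to right within a day; day 8 is 1 sample), with the single spots as open rings at days 10 and 14 and the mean and SD as a bar. The Gad1 points of day 10 lie between -0.54 and -0.05 and those of day 14 between 0.01 and 0.26.

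Gad1 encodes glutamate decarboxylase, the enzyme that makes GABA in neurons, and lies on chromosome arm 3L. At day 8 it stood at 0.06 and was not tested. At day 10 its ratios were -0.05, -0.09, -0.54 and -0.17 in replicates 1 to 4, a mean of -0.21 ± 0.22 (SD, n = 4). At day 14 they were 0.01, 0.24, 0.26 and 0.04, a mean of 0.14 ± 0.13 (n = 4). All arrays of day 10 were below 0, with replicate 3 lowest by far, and all arrays of day 14 were above 0, so the days did not overlap.

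In fold terms the day 10 mean was 0.86 (95% interval 0.73 to 1.01, adjusted p = 0.405 in limma) and the day 14 mean 1.10 (0.93 to 1.29, adjusted p = 0.815 in limma). Both intervals include 1. Without replicate 3 the day 10 mean on the log2 scale was -0.11. Replicate 3 of day 10 stood out within its array, where 1.85% of genes had a lower ratio, against 28.1% to 41.9% of genes on the other arrays of that day. The ratio was below 0 on all arrays for 12.4% of the genes with a value on all 4 arrays of day 10, and above 0 on all arrays for 8.62% of those of day 14.

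The change in Gad1 between days was tested directly. Day 14 minus day 10 was 0.35 (SE 0.15, 95% interval 0.02 to 0.68, n = 4 arrays each), with an unadjusted p of 0.0402 and an adjusted p of 0.641 in limma. The difference therefore did not pass over the 2385 genes tested, of which 7.21% had an unadjusted p under 0.05 and 0% passed. A two-sided exact permutation test over the 8 arrays gave p = 0.0286, the smallest that 4 against 4 arrays allow. That test treats the day 10 arrays as 4 independent units, which their fall into 2 pairs does not bear out. With the day 10 arrays averaged in those pairs the SE was 0.20 and the adjusted p 0.989 in limma. Of the 604 genes with a value on all 8 arrays, 4.80% likewise had all day 14 ratios above all day 10 ratios, and 1.49% had every day 10 ratio below 0 and every day 14 ratio above 0. Without day 10 replicate 3 the difference was 0.24. The separation also depended on the dyes: it was 0.0079 if replicates 1, 2 and 3 of day 10 are read the other way round. With replicates 3 and 4, 2 and 4, or 2 and 3 of both days read so, it was -0.15, 0.081 and -0.21, in that order.

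The days did not separate on every spot of Gad1. The array carries Gad1 on 4 spots, as 2 pairs of neighbouring spots, and all 7558 spot pairs with a gene name carry the same name on both spots. The first Gad1 pair was read on all 8 arrays, while the second was read only on replicate 4 at day 10 and on replicates 1, 2 and 3 at day 14. The first pair alone stood at -0.17, 0.22, 0.49 and 0.04 in replicates 1 to 4 of day 14 and at -0.05, -0.09, -0.54 and 0.06 in those of day 10. On these spots the days overlapped, since day 14 replicate 1 was below 3 of the 4 day 10 arrays.

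The difference on the first pair was 0.30 (SE 0.18, adjusted p = 0.708 in limma), and the two-sided exact permutation p was 0.2 with 4 arrays each. The second pair stood at 0.20, 0.26 and 0.02 at day 14 and at -0.40 at day 10. On day 14 replicate 1 the pairs had opposite signs, -0.17 and 0.20, and on day 10 replicate 4 they were 0.06 and -0.40. The distances between the pairs were 0.38 and 0.46, against median distances of 0.27 and 0.29 over the 470 and 302 genes with 2 pairs read on those arrays, and 63.8% and 64.2% of such genes had pairs closer together. On day 14 replicate 3 the distance was 0.46, and 88.6% of genes had closer pairs. On day 14 replicate 2 the pairs lay 0.0425 apart, and 5.26% of genes had closer pairs.

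**Figure D2:**
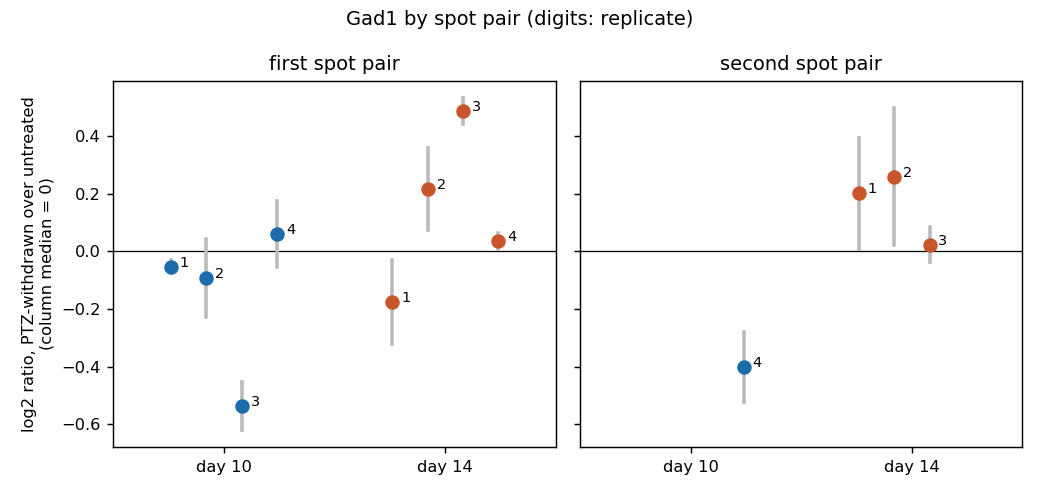
Log2 ratio of Gad1 on its first and second pair of spots at days 10 and 14, each point the mean of a pair, the grey bar joining its 2 spots and the digit naming the replicate. The first pair runs from -0.54 to 0.06 at day 10 and from -0.17 to 0.49 at day 14, so the days overlap there.

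Gat encodes the plasma membrane GABA transporter, which clears GABA into astrocyte-like glia, and lies on chromosome 4. Its day 10 ratios were -0.53, -0.70, 0.07 and -0.01 in replicates 1 to 4, a mean of -0.29 ± 0.38 (SD, n = 4). Replicates 1 and 2 were low, at 0.69 and 0.62 of the untreated heads, and replicates 3 and 4 were near 0. Both spots were below 0 on each low array, at -0.41 and -0.64 on replicate 1 and at -0.80 and -0.60 on replicate 2. The spots had opposite signs on the other arrays, at -0.09 and 0.22 on replicate 3 and at -0.26 and 0.23 on replicate 4. Of all spot pairs, 76.7% and 86.1% were closer on replicates 3 and 4, against 73.8% and 67.6% on replicates 1 and 2. On replicates 1 and 2, 4.49% and 1.13% of genes had a lower ratio, against 54.3% and 46.8% on replicates 3 and 4.

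The mean fold of Gat was 0.82 (95% interval 0.64 to 1.04, adjusted p = 0.432 in limma), and 5.15% of the genes tested at day 10 had a lower mean. The mean was -0.16 without replicate 2 and -0.41 without replicate 3. The low and the near-0 arrays are the same pairs into which the day 10 arrays fell across all genes. With the arrays averaged in those pairs the adjusted p was 0.993 in limma.

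Glial markers were set beside Gat. The glial list held 8 genes, of which repo and Eaat1 have no spot named here. Its median was -0.44, -0.02, 0.01 and -0.03 on day 10 replicates 1 to 4, over the 4 to 6 genes measured on each, with 4 of 5 tested members below 0 and none called. The astrocyte marker alrm stood at -0.79, -0.52, 0.31 and 0.60, so it too was low on replicates 1 and 2 and above 0 on replicates 3 and 4. The sodium pump subunit gene nrv2 stood at -0.72, -0.05 and -0.44 on replicates 1, 3 and 4, with no value on replicate 2. The signalling regulator loco stood at -0.07, -0.08, 0.16 and 0.29 in replicates 1 to 4, with the same signs as alrm. The barrier glia receptor moody stood at 0.06 and -0.21 on replicates 3 and 4. Eaat2, a glial transporter gene, ran the other way, at 0.14, 0.12, -0.23 and -0.04 in replicates 1 to 4, and Gs2 is given with the glutamate genes. The split was not limited to glial genes. Of the fat body list, apolpp stood at -0.33, -0.31, 0.08 and 0.56 in replicates 1 to 4. FASN1 stood at -0.11, -0.26, 0.13 and 0.67. Yp2, Yp3 and Fst, the others of that list read on all 4 arrays, did not split so. The part of the glial genes in the ratios of Gat was not tested.

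**Figure D3:**
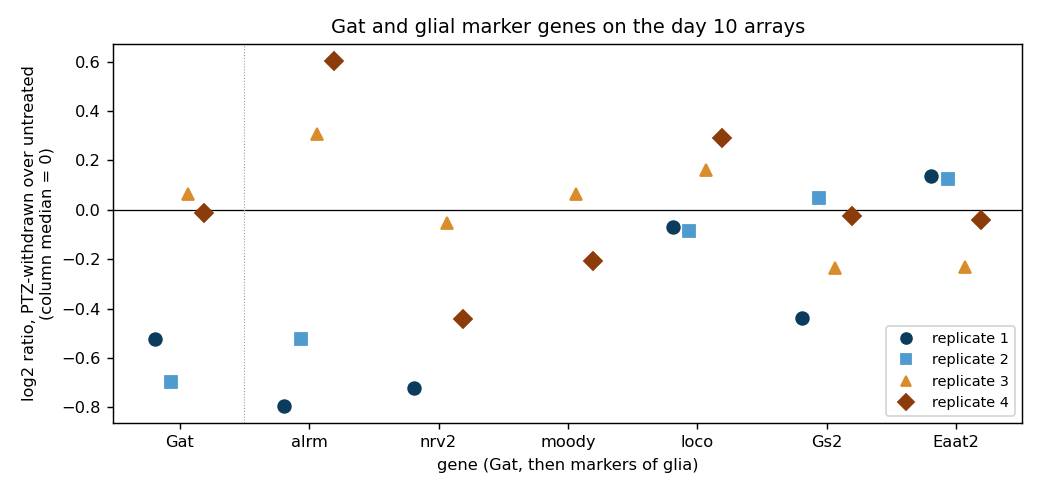
Log2 ratio of Gat and of the measured glial marker genes on the 4 day 10 arrays, each symbol 1 array. Gat and alrm lie below -0.5 on replicates 1 and 2, and on replicates 3 and 4 Gat is near 0 and alrm at 0.31 and 0.60.

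Gabat encodes the GABA transaminase, the mitochondrial enzyme that turns GABA into succinic semialdehyde, and lies on 3L. It stood at 0.03 at day 8, a single sample, where the SE was 0.24 with the spread of the other days and 0.49 with that spread raised as above. At day 10 the only array with a value, replicate 4, gave 0.16, and no test was made. At day 14 the ratios were -0.23, 0.01, 0.21 and 0.30 in replicates 1 to 4, a mean of 0.07 ± 0.24 (SD, n = 4). The arrays of day 14 lay on both sides of 0. The mean fold was 1.05 (0.87 to 1.27, adjusted p = 0.949 in limma), and day 14 minus day 8 was 0.05 (SE 0.27, or 0.50 with the day 8 spread raised, adjusted p = 0.997 in limma), a comparison in which 2.70% of 445 genes passed and 7.64% had an unadjusted p under 0.05.

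Ssadh encodes succinic semialdehyde dehydrogenase, which completes the breakdown to succinate, and lies on 3R. Its day 10 ratios were -0.12, -0.14, 0.23 and -0.01, a mean of -0.01 ± 0.17 (SD, n = 4; fold 0.99, 95% interval 0.83 to 1.18, adjusted p = 0.980 in limma). The arrays lay on both sides of 0, with replicate 3 highest. The value of replicate 4 is the mean of 2 spots at -1.04 and 1.01, a distance of 2.06, while the median distance of neighbouring spots on that array was 0.17 and 99.7% of 8002 pairs were closer. On replicates 1 and 2 the Ssadh spots lay 0.02 and 0.06 apart. With spots more than 1 apart left out, the mean over the other arrays was -0.0085.

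Lcch3 encodes a subunit of GABA-gated channels related to the beta subunits of vertebrate GABA-A receptors, and lies on X. Its day 10 ratios were -0.18, -0.21, -0.205 and 0.19 in replicates 1 to 4, a mean of -0.10 ± 0.19 (SD, n = 4; fold 0.93, 95% interval 0.78 to 1.11, adjusted p = 0.735 in limma). Replicates 1, 2 and 3 lay close together below 0, and replicate 4 stood apart above 0 on both its spots (0.24 and 0.14). Without replicate 4 the mean was -0.20. At day 14 it stood at -0.04 and 0.19 on replicates 1 and 3 and was not tested, and the spots behind the second of these lay at 0.52 and -0.15. Day 14 minus day 10 was 0.18, with a two-sided exact permutation p of 0.4 where 2 against 4 arrays allow 0.0667 at the smallest.

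**Figure D4:**
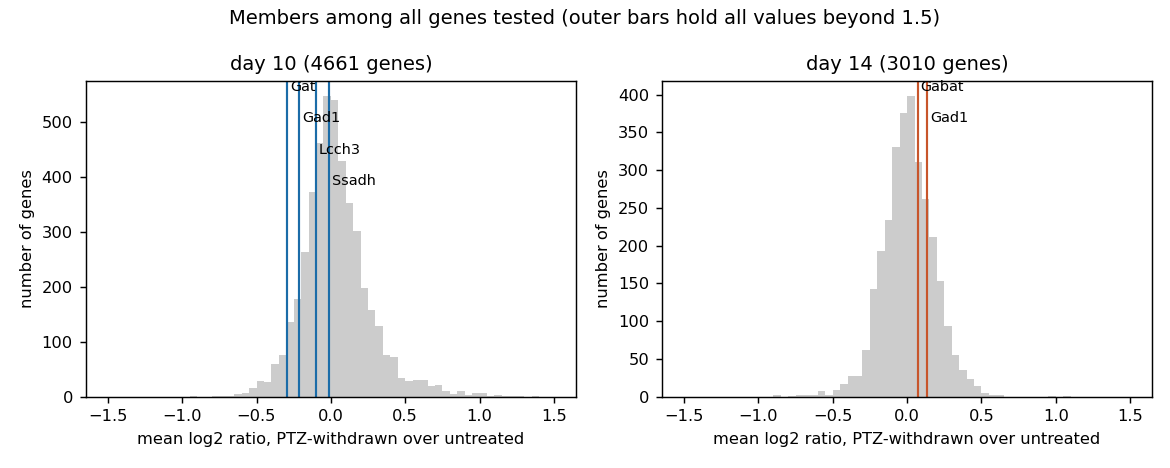
Histograms of the mean log2 ratio of withdrawn over untreated heads over all genes tested at day 10 and day 14, with the tested members as lines. At day 10 the members lie between -0.29 and -0.01, and at day 14 Gabat lies at 0.07 and Gad1 at 0.14.

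The other receptor genes were out of reach. Rdl, the subunit of the main GABA-gated chloride channel of the fly and a target of convulsants, has no spot named here, nor have Grd, CG8916, GABA-B-R1 and GABA-B-R2. GABA-B-R3, a G protein-coupled GABA receptor gene, was read on day 14 replicates 1 and 3 only, at -0.23 and 0.35. VGAT, which loads GABA into vesicles, and the chloride genes kcc and ClC-a have no spot named here. Ncc69, a cotransporter that brings chloride into cells, stood at 0.10 ± 0.21 (SD, n = 4) at day 10 and 0.13 ± 0.31 (n = 3) at day 14.

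Genes that supply glutamate and glutamine gave 4 tested members of 9 at day 10, with 2 above and 2 below 0 and a median of 0.06, and 3 at day 14, all above 0 with a median of 0.23. None was called at either day. Gs2, the glutamine synthetase of glia, stood at -0.18 at day 8 and at -0.44, 0.05, -0.23 and -0.03 in replicates 1 to 4 of day 10. At day 14 its ratios were -0.14, 0.39, 0.45 and 0.32. Gs2 was thus mostly below 0 at day 10 and above 0 on 3 of 4 arrays at day 14, and day 14 replicate 1 was the array below 0.

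Day 14 minus day 10 for Gs2 was 0.42 (SE 0.17), with an unadjusted p of 0.0340 and an adjusted p of 0.641 in limma. The other glial markers tested between these days lay below 0, loco at -0.38 (unadjusted p = 0.0412, adjusted p = 0.641 in limma) and alrm at -0.08. Gs1, the mitochondrial glutamine synthetase, stood at 0.25 ± 0.25 (SD, n = 4) at day 10 and 0.23 ± 0.05 (n = 3) at day 14, with 3 of 4 and 3 of 3 arrays above 0. Its adjusted p was 0.363 at day 10 and 0.752 at day 14 in limma. Gdh, the glutamate dehydrogenase gene, stood at 0.12 ± 0.15 and 0.095 ± 0.18 (n = 4 each) at days 10 and 14, and the transporter gene Eaat2 at -0.0022 ± 0.17 (n = 4) at day 10.

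The succinate made from GABA enters the citric acid cycle, and 6 of 8 listed genes at that entry were tested at day 10. All 6 had means above 0 with a median of 0.09, and none was called. Over all genes tested at day 10, 2475 of 4661 had means above 0. The 4 GABA genes of that day had means of the opposite sign. Several of these means lay near 0, with Ssadh at -0.01 and SdhC, SdhD and Ogdh at 0.03, 0.01 and 0.03. The 6 succinate genes included SdhB of succinate dehydrogenase at 0.22 ± 0.29 and the succinyl-CoA ligase genes Scsalpha1 at 0.19 ± 0.28 and ScsbetaA at 0.14 ± 0.14 (SD, n = 4 each). Their per-array median was -0.02, 0.04, 0.23 and 0.22 in replicates 1 to 4. At day 14, 2 of 3 tested were above 0, with SdhC at 0.19 ± 0.10 (n = 3). At day 8 ScsbetaA stood at -0.87 in the only column that held it, and was not tested.

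**Figure D5:**
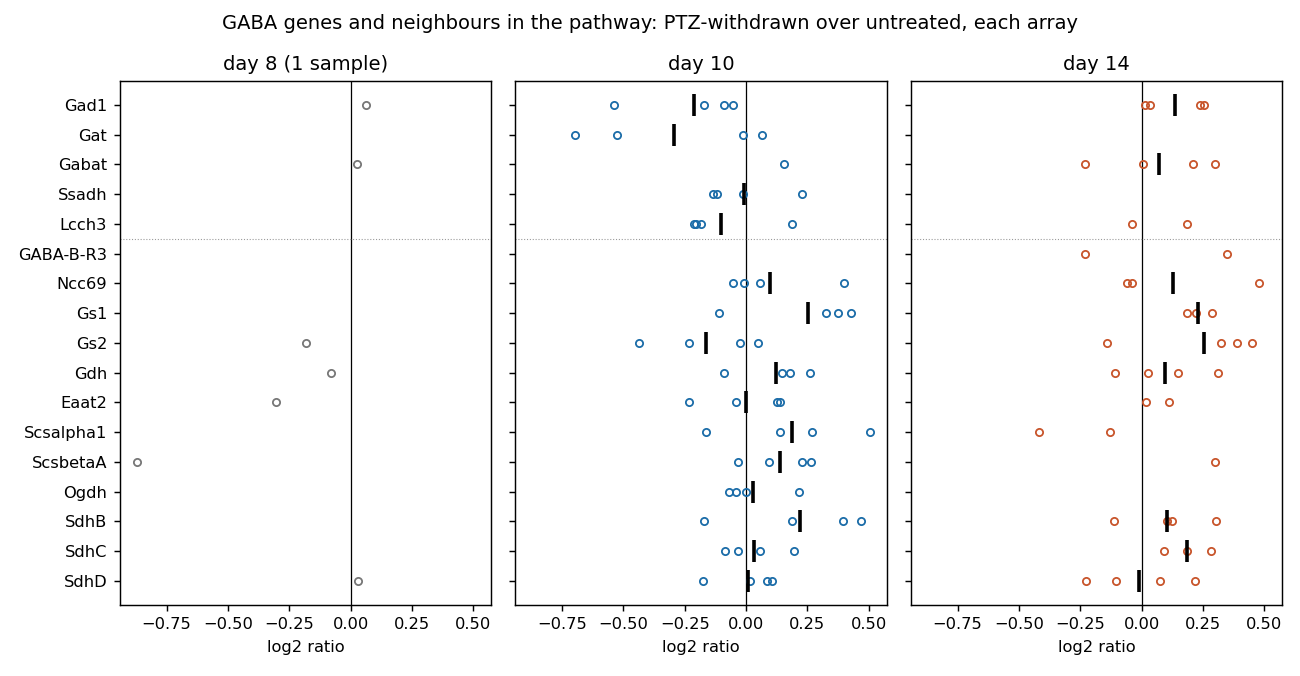
Log2 ratio of withdrawn over untreated heads on each array (rings) at days 8, 10 and 14 for the 5 GABA genes, above the dotted line, and for the measured receptor, chloride, glutamate and succinate genes below it; black bars are means over 3 or more arrays. At day 10 the tested GABA genes have means between -0.29 and -0.01 and the succinate genes between 0.01 and 0.22.

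Gad1 was the only member measured on all 8 arrays of days 10 and 14, so likeness to other genes was looked up for it alone. Among 603 other genes with a value on all 8 arrays, the most alike by Pearson's r over these arrays were CG6424 (r = 0.95), CG7149 (r = 0.94) and CG9399 (r = 0.94). The arrays share their day and the day 10 pairs, and the highest of many r is high by selection. CG6424 ran from -0.02 to 0.34 at day 14 and from -0.51 to 0.04 at day 10, so its days overlapped. CG7149 ran from -0.05 to 0.22 at day 14 and from -0.65 to -0.21 at day 10, and its days did not overlap. CG9399 ran from 0.036 to 0.23 at day 14 and from -0.20 to 0.086 at day 10, with overlap.

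Markers of other cells gave few readings. Of 10 neuronal markers only nSyb, a synaptic vesicle gene, has a spot named here, and it stood at 0.17 ± 0.16 (SD, n = 4) at day 10 and 0.22 ± 0.08 (n = 3) at day 14, so the neuronal share of the heads rests on 1 gene. The fat body list had 7 of 8 tested members above 0 at day 10 (median 0.37) and 2 of 6 at day 14 (median -0.14), with none called. Over the 6 to 9 members read on each array, its day 10 medians were 0.30, -0.047, 0.16 and 0.56 in replicates 1 to 4. Photoreceptor, muscle and hemocyte lists had at most 3 tested members per day. The part of these cells in the GABA ratios was not tested.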

How the data were processed

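The authors deposited 1 log2 ratio per spot and array. According to the series text the scans were read in GenePix Pro 6.0, ratio-normalized in Acuity 4.0, and filtered on saturation (below 3% of pixels), pixel regression (R2 from 0.6) and signal over noise (from 3). No source used here names the log base, which was taken as 2. Of 27648 spots, 15116 carry 1 gene in the platform table. Each column median was set to 0 and spots were averaged per gene, which gave 6793 genes, 5291 of them in the fit. The 4 day 8 columns entered as their mean. A mean per day was fitted to 9 samples by lmFit and eBayes of limma 3.58.1 under R 4.3.3, with all days sharing 1 spread. A call is a Benjamini-Hochberg adjusted p under 0.05 over all genes tested. The number of arrays limits the precision. Arrays of days 10 and 14 were not treated as paired by number: deviations correlated at 0.02 to 0.34 for same-numbered arrays (3 of 4 over 0.1, all 4 being required) and at -0.42 to 0.42 for others. Members and lists were chosen with earlier results of these data known. Named genes are the members, 4 lists of GABA receptor, chloride, glutamate and succinate genes, and the 3 genes most like a member on 8 arrays. Glial, neuronal and fat body markers were named from lists of cell type markers. After the values were seen, 3 spot pair settings were added. They fitted all spot pairs as features, with the first or with the second pair of Gad1, or took Gad1 from its first pair alone. Simulated data with known changes were used to check the fit.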

Additional observations from a re-analysis of the deposited data

Results flagged for a closer look

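Lcch3 on day 10 replicate 4 stood at 0.189, while the other 3 arrays lay between -0.21 and -0.18, and the gap was 0.93 of the range of the 4 arrays. Chance flags about 1 in 20 such groups, and 21 groups of 4 arrays were examined here, over the members and the pathway genes.

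Gad1 had every day 14 array above 0 and every day 10 array below 0, a difference of 0.349. Its test is given with Gad1 above: the adjusted p was 0.641 in limma, and the separation did not hold on the first spot pair alone.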

How the results depend on the processing

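Wherever a member could be tested under an alternative, it was called only in the values as deposited. With values required in all 4 columns no member was tested at day 8 or from day 8 to day 14. In the values as deposited 2 members were called at day 14, Gad1 at 1.205 and Gabat at 1.14. From day 10 to day 14, 1 was called there, Gad1 at 1.67. These values hold the column medians, which also put the 4 members of day 10 between -0.54 and -0.26. Of all genes as deposited, 3001 of 3010 were called higher at day 14 and 2352 of 2385 between the days. Turned signs, tried because the swapped arrays are not known, reversed most members. With day 10 replicates 1, 2 and 3 turned, Gad1 stood at 0.13, Gat at 0.29, Lcch3 at 0.20 and Ssadh at 0.0027. With replicates 3 and 4 of both days turned, Gad1 stood at 0.14 at day 10 and -0.010 at day 14 (difference -0.15), and Gabat at -0.18 at day 14 (-0.21 from day 8). With 2 and 4 turned, Gat stood at 0.063 and Ssadh at 0.065 at day 10, Gad1 at -0.0011 and Gabat at -0.083 at day 14 (-0.11 from day 8). With 2 and 3 turned, Gad1 stood at 0.10, Gat at 0.023 and Lcch3 at 0.11 at day 10, Gad1 at -0.11 at day 14 (difference -0.21), and Gabat at -0.036 (-0.0625 from day 8). With medians of 48 runs of spots set to 0, Gabat stood at -0.044 at day 8 and Ssadh at 0.037 at day 10. Gat moved further below 0 at day 10, to -0.41 (SE 0.12, adjusted p = 0.301 in limma). At day 14 under that setting Gad1 stood at 0.08 and Gabat at 0.11 (0.16 from day 8). Leaving out an array in turn moved Ssadh between -0.090 and 0.032, Gabat at day 14 between -0.005 and 0.17 and its difference from day 8 between -0.031 and 0.15, Gad1 between -0.27 and -0.11 at day 10 and between 0.24 and 0.40 between the days, Gat between -0.41 and -0.16 and Lcch3 between -0.20 and -0.07. With the replicate block the difference of Gad1 was 0.35 (adjusted p = 0.682 in limma). That block gave no test of Gat and Ssadh, which have no day 14 value, or of Gabat, which has 1 day 10 value, and a fit of day 8 alone was not possible. Over all genes, day 10 gave 0 calls, against 80 without replicate 1, 14 without replicate 2, 1 without replicate 4, 3 with a value in all 4 columns, 2 with the block and 1 with arrays averaged in pairs, and from day 10 to day 14 it gave 0, against 3 without day 10 replicate 1. Day 8 gave 19, against 4 with its spread raised 2.02 times for its noisier spots, 8 as deposited, 6 and 29 with values required in 4 and in 2 columns and 11 without spots more than 1 apart; day 14 minus day 8 gave 12, against 24, 19, 1, 5 and 4 in the values as deposited, with 2 and with 4 columns, without such spots and with the spread raised.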
